A study of Mus musculus and Mus musculus musculus x Mus musculus castaneus with 8 samples.

Results

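Myod1, Myog, Myf5 and Myf6 encode the 4 myogenic regulatory factors, and open chromatin around these genes was examined in mouse myoblasts, in mouse embryonic fibroblasts (MEFs) and in MEF nuclei after nuclear transfer (NT) into Xenopus laevis oocytes. The members are all open chromatin peaks that touch 1 of 3 windows in coordinates of the genome build mm9. The windows are chr7:53530000-53735000 (Myod1), chr1:136085000-136290000 (Myog) and chr10:106820000-107035000 (Myf5 and Myf6, which lie next to each other). They hold 50 of the 151729 peaks of all 5 peak lists. The windows are named for these genes and were chosen with earlier results of these data known.

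Open chromatin was mapped by ATAC-seq, in which a transposase inserts sequencing adaptors into accessible DNA. The lists come from 8 libraries in 5 groups. C2C12 is a cultured mouse myoblast line, with strain given as C3h, and was profiled in 2 libraries of 50000 cells each and in 2 of 1000 cells each. Donor MEFs were permeabilized for transfer but not transplanted (1 library of 3000 cells), and all MEFs derive from embryos of a cross with Mus musculus castaneus. Their nuclei were recovered 48 h after transplantation into Xenopus oocytes (2 libraries of 3000 cells), or 48 h after transplantation into oocytes that overexpressed Toca1/Fnbp1l, a protein that promotes the assembly of actin filaments (1 library of 3000 cells). Each NT library pooled the nuclei of several oocytes. There is 1 list of peaks per group, called at a false discovery rate of 0.01, with positions and no score, so the spread between replicates and the depth are unknown. No difference between lists could therefore be tested, and a longer list can come from more reads. The lists hold 52697 (C2C12, 50000 cells), 34771 (C2C12, 1000 cells), 39592 (donor MEFs), 8257 (after NT) and 16412 peaks (after NT with Toca1/Fnbp1l).

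The myogenic regulatory factors are basic helix-loop-helix proteins that bind the E-box, written CANNTG, together with E proteins and switch on muscle genes. Myf5, Myod1 and Myf6 act in the commitment of cells to the muscle lineage, and Myf6 also acts late in muscle fibres. Myog drives the differentiation of committed myoblasts. Proliferating C2C12 cells are known to express Myod1 and Myf5 and to switch on Myog when they differentiate, whereas fibroblasts normally keep these genes silent. Forced expression of Myod1 can turn fibroblasts into muscle cells.

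To show the kind of DNA in question, the 250 bases before the gene start are given for the members that RefSeq start sequences (build GRCm38.p6) were found for, Myog and Myf5. Capitals mark each E-box (CANNTG, which reads alike on both strands). The Myog sequence is chr1:134289754-134290003 on the plus strand and the Myf5 sequence chr10:107486135-107486384 on the minus strand of that build. These positions cannot be set beside those of the peaks, which are in mm9.
Myog: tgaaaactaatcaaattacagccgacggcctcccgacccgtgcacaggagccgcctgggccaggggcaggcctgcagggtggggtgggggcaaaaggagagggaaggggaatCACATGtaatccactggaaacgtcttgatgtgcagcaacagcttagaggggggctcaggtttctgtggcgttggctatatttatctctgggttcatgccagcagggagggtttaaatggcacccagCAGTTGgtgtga
Myf5: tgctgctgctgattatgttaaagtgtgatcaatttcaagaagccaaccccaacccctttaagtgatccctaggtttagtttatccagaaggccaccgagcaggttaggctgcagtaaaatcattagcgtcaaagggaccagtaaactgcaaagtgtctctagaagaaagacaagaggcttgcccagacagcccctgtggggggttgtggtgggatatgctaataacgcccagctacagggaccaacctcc
The Myog sequence holds 2 E-boxes (CACATG and CAGTTG) and the Myf5 sequence holds 0. Of 32851 RefSeq start sequences of this length, 66.2% hold at least 1 E-box.

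No gene models in mm9 were used here, so peaks are placed by their distance from the centre of the window, and whether a peak covers a promoter is not given. In the order of genes along GRCm38.p6, Otog lies on one side of Myod1 and Kcnc1 and Sergef on the other. Myog lies between Adora1 and Ppfia4, with Chil1, Mybph, Tmem183a and Mgat4f further out. Myf5 and Myf6 lie between Lin7a and Ptprq, and peaks of their window cannot be divided between them. Myod1, Myog and the Myf5 and Myf6 pair thus each share a window with other genes, to which a peak can belong.

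The 3 windows differed in where the myoblast peaks lay and in how many there were. In the C2C12 list from 50000 cells, 10 peaks fell in the Myf5-Myf6 window, 6 in the Myod1 window and 4 in the Myog window. The donor MEF list held 0, 2 and 6 peaks in the same order. The list after NT held 4 peaks, all in the Myog window, and the Toca1/Fnbp1l list held 3 in the Myog window, 2 in the Myod1 window and 0 in the Myf5-Myf6 window. The list from 1000 C2C12 cells held 6 peaks in the Myod1 window, 5 in the Myf5-Myf6 window and 2 in the Myog window. Of all genomic windows of the same length, 12.4%, 22.5% and 63.9% held at least as many peaks of this list, in that order. Windows of 205 kb without a peak made up 17.7% for this list and 32.6% for the longer 50000-cell list. Where peaks of different lists overlapped by at least 1 bp they were joined to 1 site, which gave 43 sites. Of these, 38 were in 1 list, 4 were in 2 lists and 1 was in 4 lists. Sites were not counted in this way over the whole genome, so these numbers cannot be read as a trait of the windows. Among the pairs of whole lists compared, the share of peaks overlapped ranged from 5.62% to 64.6%.

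**Figure D1:**
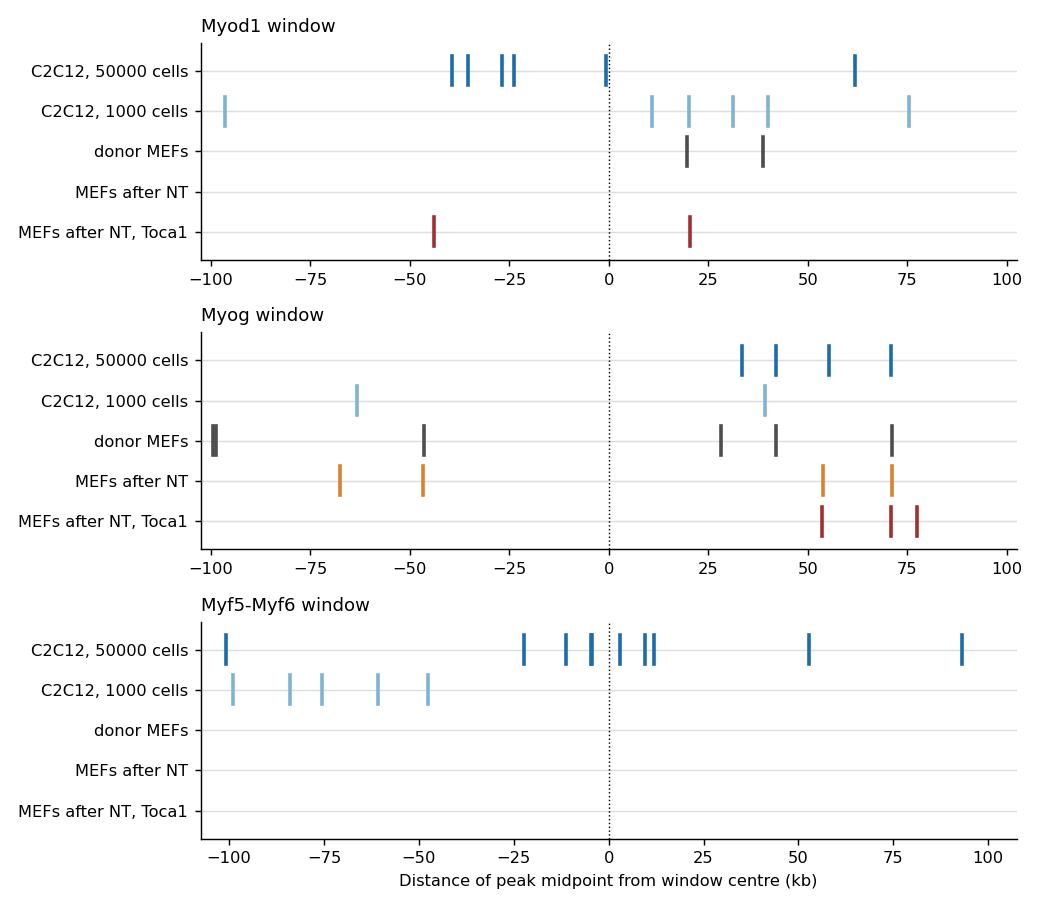
Positions of all 50 peaks in the Myod1, Myog and Myf5-Myf6 windows, as the distance of the peak midpoint from the window centre in kb, with 1 row per peak list. The line thickness is the same for every peak. The 10 myoblast peaks (50000 cells) of the Myf5-Myf6 window have no counterpart in the row of 1000 C2C12 cells. The donor MEF, NT and Toca1/Fnbp1l rows hold 0 peaks in that window, so no counterpart was possible there. Of the whole 50000-cell list, 5.62% were overlapped by a peak of 1000 C2C12 cells and 48.4% by a donor MEF peak. A peak after NT overlapped 7.86% and a Toca1/Fnbp1l peak 16.5%.

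The Myf5-Myf6 window showed the greatest contrast between the C2C12 list from 50000 cells and the donor MEF list, 10 peaks against 0. The 10 peaks covered 3570 bp, and 7 of them lay within 25 kb of the centre. The 7 peaks, from left to right, begin at 106904994, 106916039, 106922651, 106923001, 106930424, 106936599 and 106939315 on chromosome 10. The gaps between them were 10847, 6192, 85, 7098, 5951 and 2018 bp, where the median gap in the whole list was 14682 bp. Taking peaks within 25 kb of the centre favours short gaps, so this is no evidence of clustering. The other gaps of this list in the window were 78050, 40454 and 40082 bp. The widest is at chr10:106936599-106937296 and measures 698 bp, and 84.3% of the peaks of that list are narrower. The peak nearest to the centre, at chr10:106930424-106930647, measures 224 bp, and only 9.77% of the list is narrower. The other 3 peaks stand apart, at chr10:106826414-106826943 (530 bp), chr10:106980057-106980431 (375 bp) and chr10:107020514-107020760 (247 bp).

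Of all peaks of the C2C12 list from 50000 cells, 48.4% were overlapped by a donor MEF peak. In the Myf5-Myf6 window the donor MEF list held 0 peaks, so its 10 myoblast peaks could not be overlapped. Their lack of overlap restates the count of 10 against 0. The nearest donor MEF peak was 17588 to 157473 bp away from each of the 10. When chromosomes 1 to 19 and X were cut into 12263 windows of the same 215 kb, 15.1% held at least 10 peaks of the C2C12 list, and 34.0% held 0 donor MEF peaks. The difference of at least 10 peaks occurred in 1.21% of the windows. In the list from 1000 C2C12 cells, of the same line, 0 of the 10 had a counterpart, and only 5.62% of the whole 50000-cell list had one. The emptiness of the donor MEF list at Myf5 and Myf6 depends on the edge, because its nearest peak lies 3349 bp outside the right side of the window.

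**Figure D2:**
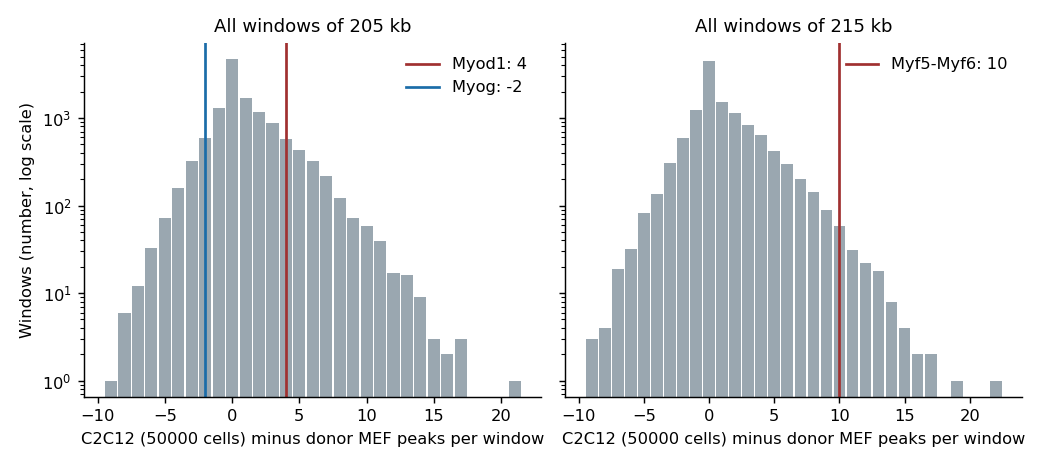
Number of genomic windows (log scale) by the difference between C2C12 (50000 cells) and donor MEF peak numbers, for windows of 205 kb on the left and 215 kb on the right. Vertical lines mark the Myod1 window at 4, the Myog window at -2 and the Myf5-Myf6 window at 10, which lies in the right tail.

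The Myod1 window held 6 myoblast peaks (C2C12 list from 50000 cells). Of these, 4 formed a group to the left of the centre, at chr7:53592806-53593234, chr7:53596686-53597621, chr7:53605540-53605806 and chr7:53608527-53608850. Their widths were 429, 936, 267 and 324 bp, and the second was the widest myoblast peak of all 3 windows, with 94.5% of the list narrower. The fifth, at chr7:53631573-53631889, measures 317 bp and ends 611 bp from the centre of the window, after a gap of 22722 bp without a peak. The sixth (chr7:53694219-53694440) is the narrowest, at 222 bp, and lies 61.7 kb to the right of the centre. Myod1 is known to be controlled by distal enhancers upstream of the gene, and these peaks were not matched to them here.

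Neither of the 2 donor MEF peaks of the Myod1 window overlapped a myoblast peak. They lie at chr7:53652037-53652312 (276 bp) and chr7:53671179-53671506 (328 bp), both to the right of the centre. The nearest peak of the 50000-cell list is 20147 and 22712 bp away from them, and the nearest of the 1000-cell list 358 and 831 bp. Of the 6 myoblast peaks, 0 were overlapped by a donor MEF peak (exact binomial interval, which covers counting error over peaks only, 0% to 45.9%). In the whole list 48.4% were, but the 2 donor MEF peaks of the window left room for few overlaps. The excess of 4 myoblast peaks at Myod1 is within what many windows show: 14.6% of 12861 windows of 205 kb had a difference of 4 or more, 31.2% held at least 6 C2C12 peaks and 53.6% at least 2 donor MEF peaks. Relative to the length of the lists, the Myod1 window held 1.14 peaks per 10000 in the C2C12 list and 0.505 per 10000 in the donor MEF list.

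At Myog the direction was the opposite, with 4 myoblast and 6 donor MEF peaks, but the size of the difference depends on the edges of the window. Relative to the length of the lists, the Myog window held 0.759 peaks per 10000 in the C2C12 list and 1.52 in the donor MEF list. The difference was -1 when the window was shortened by 50 kb at each side and 0 when it was extended by as much. A difference of -2 or below was found in 9.22% of the windows of that length, 43.1% of windows held at least 4 C2C12 peaks and 22.3% at least 6 donor MEF peaks. All 4 myoblast peaks lay to the right of the centre, at chr1:136220804-136221018, chr1:136229193-136229846, chr1:136242748-136243192 and chr1:136258222-136258778. Their widths were 215, 654, 445 and 557 bp. To the left of them, 139 kb around the centre held no 50000-cell C2C12 peak, and none of the 5 lists had a peak within 25 kb of the centre. The donor MEF peaks nearest to the centre lie at chr1:136215511-136215819 (309 bp) on the right and chr1:136140817-136141163 (347 bp) on the left. A donor MEF peak overlapped 2 of the 4 myoblast peaks (50.0%, exact binomial interval 6.76% to 93.2%), close to the 48.4% of the whole list. These 2 were the 2 widest myoblast peaks of the Myog window.

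Over the 3 windows together, 2 of 20 myoblast peaks were overlapped by a donor MEF peak (10.0%, exact binomial interval 1.23% to 31.7%), against 48.4% in the whole list. In the other direction 2 of 8 donor MEF peaks were overlapped by a C2C12 peak (25.0%, interval 3.19% to 65.1%), against 64.6% in the whole list. Both shared sites lay in the Myog window, where 2 of 4 myoblast peaks (50.0%) were overlapped, and the Myod1 and Myf5-Myf6 windows held 0. Of the 20 myoblast peaks, 10 lay in the Myf5-Myf6 window, where the donor MEF list held 0 peaks and no overlap was possible. The low pooled share therefore partly restates the peak counts and is no separate result on sharing. Peaks of 1 list are not replicates, and the C2C12 libraries behind the list compared here had more cells than the MEF library. The strain also differed, and the donor MEFs were permeabilized for transfer. Cell type, strain, cell number, permeabilization and library therefore cannot be told apart.

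**Figure D3:**
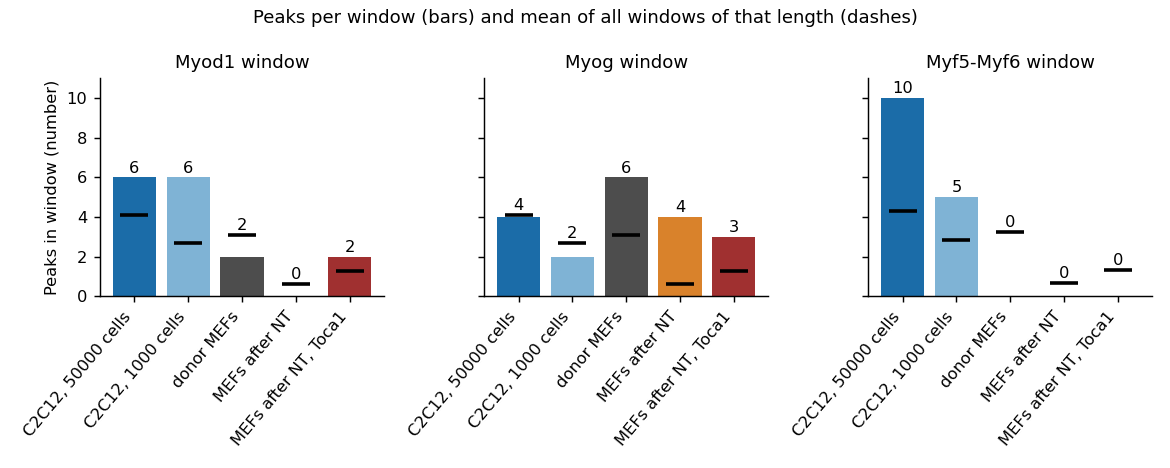
Number of peaks per window (bars, number above) in each of the 5 lists, with the mean over all windows of the same length as a dash. In the Myf5-Myf6 window the C2C12 list from 50000 cells held 10 peaks against a mean of 4.30, and the 3 MEF lists held 0. In the Myog window the list after NT held 4 peaks against a mean of 0.642.

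The comparison of donor MEFs with MEFs after NT asks which open sites of the donor persist in the oocyte and which appear there. The list after NT held 0 peaks in the Myod1 and Myf5-Myf6 windows, and the donor list held 0 in the latter, so peaks of both lists could be set side by side in the Myog window alone. A list with no peak in such a window is common: 65.3% of the windows of 205 kb and 64.6% of those of 215 kb held 0 peaks after NT. At least 4 peaks after NT, as in the Myog window, were held by 3.13% of windows. That number fell to 1 with a minimum peak width of 250 bp, and to 1 in the window shortened by 50 kb at each side. Of the 6 donor MEF peaks in the Myog window, 2 were overlapped by a peak after NT (33.3%, exact binomial interval 4.33% to 77.7%), and 9.73% of the whole donor list were. In reverse, 2 of the 4 peaks after NT were overlapped by a donor MEF peak (50.0%, interval 6.76% to 93.2%), against 46.9% of the list after NT. Over all 3 windows the first share was 2 of 8 (25.0%, interval 3.19% to 65.1%), and both donor peaks of the Myod1 window were without a counterpart. The intervals cover counting error only, and each holds the value of the whole list. With so few peaks and 1 list per group, a different share at the myogenic genes was not tested. The comparison shares its donor MEF list with that against C2C12 cells.

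The persisting sites differed in their history across the lists. The first, left of the centre of the Myog window, was at chr1:136140817-136141163 in donor MEFs (347 bp) and at chr1:136140839-136141046 after NT (208 bp), and was in no other list. The other was the only site of the 3 windows found in 4 lists. It was at chr1:136258222-136258778 in C2C12 cells from 50000 cells (557 bp), at chr1:136258426-136258973 in donor MEFs (548 bp), at chr1:136258468-136258733 after NT (266 bp) and at chr1:136258146-136258694 after NT with Toca1/Fnbp1l (549 bp). It lies 70.6 to 71.0 kb to the right of the centre of the Myog window. The site shared by C2C12 cells (chr1:136229193-136229846, 654 bp) and donor MEFs (chr1:136229356-136229865, 510 bp) had no peak after NT in either list.

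In the same window 2 of the 4 peaks after NT were newly opened, meaning that no donor MEF peak lay within 5000 bp, where 38.1% of the whole list after NT met this definition. The first, at chr1:136119851-136120089, measures 239 bp and lies 20727 bp from a donor MEF peak, and the study's annotation places it in Adora1, an adenosine receptor gene. The second, at chr1:136241124-136241354, measures 231 bp and lies 11258 bp from a donor MEF peak. Its closest gene start by the study's annotation is that of Ppfia4, which encodes a liprin scaffold protein. It also lies 1393 bp from a myoblast peak without touching it. Neither peak was attributed to Myog by that annotation.

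The Toca1/Fnbp1l comparison asks whether enhanced actin polymerization in the oocyte goes with more open sites. Across the 3 windows the Toca1/Fnbp1l list held 5 peaks and the control NT list 4. The whole Toca1/Fnbp1l list is longer than the control list, and relative to the lists the windows held 3.05 and 4.84 peaks per 10000. Of all windows of that length, 19.5% held at least 3 Toca1/Fnbp1l peaks, as the Myog window did. At Myog, 2 of the 4 control NT peaks were overlapped by a Toca1/Fnbp1l peak (50.0%, exact binomial interval 6.76% to 93.2%), against 44.3% of the whole control list. In reverse, 2 of the 5 Toca1/Fnbp1l peaks were overlapped by a control NT peak (40.0%, interval 5.27% to 85.3%), against 21.5% of the whole Toca1/Fnbp1l list. Both were wider with Toca1/Fnbp1l. The newly opened peak near Ppfia4 measured 231 bp after control NT and 614 bp with Toca1/Fnbp1l (chr1:136240854-136241467), and the site found in 4 lists measured 266 and 549 bp. The medians of the whole lists were 291 and 467 bp. The third Toca1/Fnbp1l peak of the Myog window, at chr1:136264740-136265297 (558 bp), was in no other list and lay 5766 bp from a donor MEF peak. The control NT peaks at chr1:136119851-136120089 and chr1:136140839-136141046 were without a Toca1/Fnbp1l counterpart.

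In the Myod1 window, where the control NT list held 0 peaks, the Toca1/Fnbp1l list held 2, and 29.4% of all windows of that length held at least 2. The peak at chr7:53588477-53588851 (375 bp) lies 43.6 kb to the left of the centre and 3954 bp from the leftmost myoblast peak, outside every peak of the other lists. It is 63185 bp from a donor MEF peak and so counts as newly opened. The peak at chr7:53652722-53653119 (398 bp) lies 409 bp from a donor MEF peak and overlaps a 1000-cell C2C12 peak (chr7:53652671-53652821, 151 bp). Neither coincided with a myoblast peak of the 50000-cell list. In all, 3 of the 5 Toca1/Fnbp1l peaks were newly opened by the distance rule, against 39.7% of the whole list. A donor MEF peak overlapped 1 of the 5 (20.0%, interval 0.505% to 71.6%), against 45.5% of the whole list, and of the 8 donor MEF peaks 1 was overlapped by a Toca1/Fnbp1l peak (exact binomial interval 0.316% to 52.7%), against 19.7% of the whole donor list. At Myf5 and Myf6 the Toca1/Fnbp1l list was as empty as the control list, and 54.3% of windows of that length held 0 of its peaks. With 1 list per arm, the effect of Toca1/Fnbp1l cannot be told apart from that of the library or its depth.

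**Figure D4:**
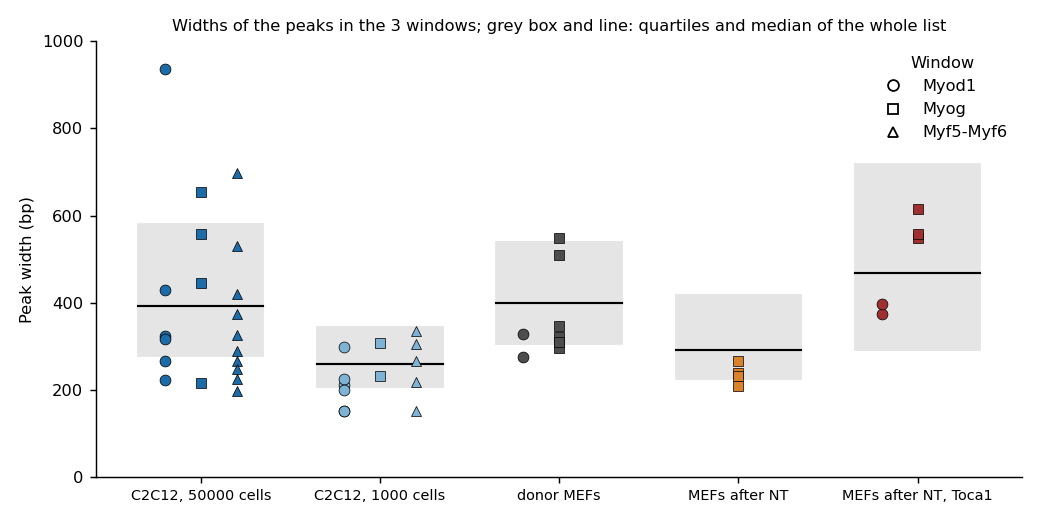
Width in bp of each peak in the windows of Myod1 (circles), Myog (squares) and Myf5-Myf6 (triangles), by list, with the quartiles (grey box) and median (line) of the whole list. The 4 peaks after NT lie between 208 and 266 bp, all under their list's median of 291 bp, and the 3 Toca1/Fnbp1l peaks of the Myog window lie between 549 and 614 bp, above their list's median of 467 bp.

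In the C2C12 and donor MEF lists, fewer peaks of the windows lay above the median width of the list than below it. The numbers are small, a median divides any list evenly, and the departure from an even split was not tested. After NT 0 of 4 peaks were wider than the list's median, and with Toca1/Fnbp1l 3 of 5 were. Of the 20 myoblast peaks (50000 cells), 8 were wider than the list's median of 392 bp, and the median in the windows was 324 bp. Among the 8 donor MEF peaks, 2 were wider than the list's median of 399 bp, both of them at sites of the Myog window shared with C2C12 cells. In the Myf5-Myf6 window the myoblast peaks ranged from 198 to 698 bp, in the Myod1 window from 222 to 936 bp and in the Myog window from 215 to 654 bp, so the ranges overlapped. Width cannot be read as signal strength, because the lists give no read number.

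The list from 1000 C2C12 cells did not repeat any of the myoblast peaks at the myogenic genes. Of its 13 peaks in the windows, 0 were overlapped by a peak of the list from 50000 cells (exact binomial interval 0% to 24.7%), and in the whole list 8.48% were. In reverse it was 0 of 20 peaks (interval 0% to 16.8%), against 5.62%. The low share is thus shared with the rest of the list. None of the 13 was overlapped by a donor MEF peak (interval 0% to 24.7%), and 6.83% of the whole 1000-cell list were. The 5 of them in the Myf5-Myf6 window had no donor MEF peak there to overlap. In the Myf5-Myf6 window the 5 peaks of the 1000-cell list lay 47.6 to 98.9 kb to the left of the centre. The list from 50000 cells held 0 peaks within that range, which these 5 peaks themselves set. A 50000-cell peak (chr10:106826414-106826943) lay just beyond it, 1472 bp from the outermost of the 5. In the Myod1 window 5 of the 6 peaks of the 1000-cell list lay to the right of the centre, where the list from 50000 cells also held 1. The peaks of the 1000-cell list in the windows measured 151 to 334 bp. Libraries from 1000 cells went to amplification without column purification, and the part of this step in the result was not tested.

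The stretch around each centre that held no peak differed between the lists. Around the centre of the Myf5-Myf6 window it measured 7.10 kb in the C2C12 list from 50000 cells and 180 kb in that from 1000 cells. It measured 369 kb in donor MEFs, 2924 kb after NT and 2587 kb after NT with Toca1/Fnbp1l. The median gaps of the whole lists were 14.7, 38.8, 21.9, 101 and 44.2 kb in the same order, so shorter lists had longer median gaps. Gaps at least as long as this stretch made up 66.4% of the gaps of the 50000-cell C2C12 list, 9.46% of the 1000-cell list and 2.56% of the donor MEF list. The stretch empty after NT, at chr10:104675647-107599695, held 68 myoblast peaks of the 50000-cell list and 25 of the donor MEF list. Of these 25, 20 were overlapped by a C2C12 peak, against 64.6% of the whole donor MEF list. Since the stretch is defined by the absence of peaks after NT, the lack of a counterpart for all 25 is a description of it. In the whole donor MEF list only 9.73% of peaks were overlapped by a peak after NT. Of the 8237 gaps between peaks of the list after NT, 129 (1.57%) are at least as long, and they make up 25.9% of the length between its peaks. In the Toca1/Fnbp1l list, 142 of 16392 gaps (0.866%) are at least as long as its own, with 24.2% of the length. Around the centre of the Myod1 window the empty stretch was 62.3 kb in the C2C12 list from 50000 cells and 107 kb in that from 1000 cells. It was 149 kb in donor MEFs, 577 kb after NT and 63.9 kb with Toca1/Fnbp1l. At Myog the order was another, with 139 kb in the C2C12 list from 50000 cells and 102 kb in that from 1000 cells. The stretch there was 74.3 kb in donor MEFs, 100 kb after NT and 190 kb with Toca1/Fnbp1l.

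**Figure D5:**
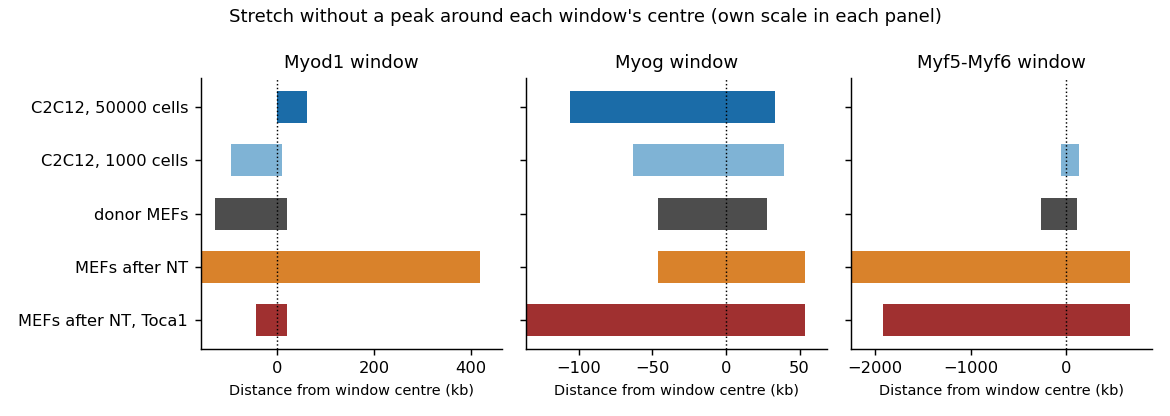
Stretch without a peak around the centre of each window, as bars from the nearest peak on the left to the nearest on the right in kb from the centre, with 1 bar per list and a scale of its own in each panel. In the Myf5-Myf6 panel the bars of the NT and Toca1/Fnbp1l lists span 2924 and 2587 kb, and that of C2C12 cells from 50000 cells spans 7.10 kb and is hardly visible.

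The edges of the windows were set by the rule, and the peaks next to them show what it left out. Just inside the left edge of the Myog window lay 2 donor MEF peaks (chr1:136087839-136088134 and chr1:136088689-136089009), the first of them 2839 bp from the edge. The nearest 50000-cell C2C12 peak lay 3571 bp outside the same edge. At the right edge of the Myf5-Myf6 window the last myoblast peak lay 14240 bp inside, the next one 17307 bp outside and the first donor MEF peak 3349 bp outside. The next peaks after NT lay 2144 kb outside the left edge and 565 kb outside the right edge of that window. Around the Myod1 window the nearest myoblast (50000 cells) and donor MEF peaks lay 27.3 and 26.7 kb outside the left edge, and the nearest peak after NT 55.9 kb outside it.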

How the data were processed

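ATAC-seq libraries (8 in 5 groups) were grouped by their titles. The authors deposited 1 list of peak positions per group at a false discovery rate of 0.01. Each list was matched to its group by name. The submitters' processing notes name Bowtie2 2.2.1, Picard, MACS2 2.1 and build mm9, without settings, and whether libraries were pooled before calling is not given in the sources used here. Duplicate removal and calling settings change which sites pass, and without scores weak and strong peaks count alike.

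Peaks touching the windows by at least 1 bp were taken, starts were made 1-based, and peaks of 2 lists sharing 1 bp or more counted as overlapping. Whole lists and all windows of equal length served as background. Intervals are 95% Clopper-Pearson intervals. The windows, and the gene list named below, were chosen with earlier results of these data known. All peaks in the windows were counted, and single peaks were described when they were in 2 or more lists, the widest, nearest to the centre or newly opened, with others added for completeness. A list of muscle genes (regulators, partners and targets) was not counted, since mm9 gene models were not used here. Overlap and window counts were checked on simulated peaks. Python 3.11.15, numpy 2.4.6, scipy 1.17.1 and matplotlib 3.10.9 were used.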

Additional observations from a re-analysis of the deposited data

How the results depend on the processing

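Joining peaks up to 150 bp apart moved no count by over 1.5 times. With a tiling shifted by part of a window, 43.5% of windows held at least as many 50000-cell C2C12 peaks as the Myog window, against 43.1%. For the Myf5-Myf6 length, 64.2% held 0 peaks after NT, against 64.6%. No share moved by more percentage points than these. No paired analysis was possible because the replicate libraries of a group share 1 list, and for the same reason none was left out. The lists hold no score, so a minimum width stood in for a stricter threshold. Beyond what each setting imposes by its construction, the cause of a moved value was not tested.

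Under a minimum width of 250 bp, the list from 1000 C2C12 cells held 1 peak at Myod1, 1 at Myog and 3 at Myf5-Myf6, and the list after NT held 1 at Myog. The overlaps of donor MEF with NT peaks and of NT with Toca1/Fnbp1l peaks, in either direction, were then 1 at Myog and 1 in all. With a reciprocal overlap of at least 50% they were 1 (donor MEF and NT) and 0 (NT and Toca1/Fnbp1l), and that of donor MEF with Toca1/Fnbp1l peaks was 0. Within 500 bp, the latter was 1 at Myod1 and 2 in all. With the C2C12 list from 1000 cells, 0 myoblast peaks were overlapped by a donor MEF peak at Myog and in all, where its whole-list share is 6.83%.

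With windows shortened by 50 kb at each side, Myog held 2 (C2C12, 50000 cells), 1 (C2C12, 1000 cells), 3 (donor MEF), 1 (NT) and 0 (Toca1/Fnbp1l) peaks, and Myf5-Myf6 held 1 of the list from 1000 cells. Extended by 50 kb, Myog held 8 C2C12 (50000 cells) and 7 Toca1/Fnbp1l peaks, and Myf5-Myf6 held 8 of the list from 1000 cells and 4 of donor MEFs. The difference between C2C12 and donor MEF peaks at Myog, an alternative added after seeing the data, was -1 in shortened and 0 in extended windows. It thus kept its direction in the shortened window and was absent in the extended one. In covered length it was -460 bp. At Myod1 and Myf5-Myf6 the difference kept its direction in both.

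On autosomes alone, the share of windows with at least as many peaks was 32.6% (C2C12, 50000 cells), 55.6% (donor MEF) and 31.0% (Toca1/Fnbp1l) for Myod1, 44.9%, 23.5% and 20.6% for Myog and 16.0% for C2C12 peaks at Myf5-Myf6. The share with 0 peaks was 63.7% for NT at Myod1 and 32.2%, 63.0% and 52.4% for donor MEF, NT and Toca1/Fnbp1l at Myf5-Myf6. Among windows with a C2C12 (50000 cells) or donor MEF peak, also added after seeing the data, the first shares were 42.5%, 73.2% and 40.0% for Myod1, 58.8%, 30.4% and 26.6% for Myog, 4.28% for NT at Myog and 20.5% for C2C12 peaks at Myf5-Myf6. The shares with 0 peaks were 53.8% for NT at Myod1 and 10.6%, 53.1% and 39.3% for donor MEF, NT and Toca1/Fnbp1l at Myf5-Myf6.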
